A study of Homo sapiens with 6 samples.

Results

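The 7 genes CXCL9, CXCL10, CXCL11, CXCL16, CX3CL1, CCL5 and CXCL14, which encode chemokines that attract T cells, were found by gene symbol among the 60671 genes of the deposited table, each in 1 row. They were measured in HaCaT cells labelled as wild type, a spontaneously immortalised keratinocyte line of human skin. In 3 libraries the cells had been kept for 24 h in serum-free high-glucose DMEM with IFN-beta at 160 ng/mL, a dose that the labels give as the default. In 3 control libraries they had been kept for 24 h in the same serum-free medium with no IFN-beta. The design text of the series speaks of mouse skin, but the sample labels and the human gene identifiers of the table describe this cell line. All libraries come from 1 cell line, and no label says that replicates were separate cultures. Every p-value therefore sets a difference between the groups against the spread of these 6 libraries, and that spread may be technical.

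Chemokines are small secreted proteins that guide white blood cells by binding G protein-coupled receptors. CXCL9, CXCL10 and CXCL11 share the receptor CXCR3, which activated T cells and natural killer cells carry, and they are known as products of interferon-treated epithelium. CXCL16 and CX3CL1 are made as membrane-anchored proteins, can hold cells by adhesion, and become soluble attractants after the proteases ADAM10 and ADAM17 cut them off. CCL5 attracts T cells and monocytes, and CXCL14 is an epithelial chemokine of resting tissue.

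The authors deposited their values as FPKM, that is, reads per kilobase of gene scaled to the total of the library, so levels may be compared between genes per unit of length. The libraries held between 25832158 and 30594527 reads. Those totals and the reads of each gene were recovered from the steps of the FPKM values, within 0.01 reads for 30507 of the 30507 genes above 0. For 20314 of these genes, the 7 chemokines included, the recovered number is the smallest that the values allow, and the true one could be a multiple. Changes were tested with limma on log2(FPKM + 0.5) over the 15163 genes with a mean of at least 0.5 FPKM, and a change was called at an adjusted p of 0.05 over all of them. Of these genes 42.4% were called in either direction. In detail, 22.5% were called higher with IFN-beta and 19.9% lower, so that 53.2% of the calls were higher. The share of higher calls was 63.2% with values rescaled to equal sums, and 41.3% with quantile normalization.

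The cells carried the markers of their label and few of other cell types. Of 8 keratinocyte markers all 8 were measured above the level filter, and their summed level was between 3651 and 3708 FPKM in the IFN-beta libraries, against 3640 to 3944 FPKM in the control libraries. Single keratinocyte markers went both ways within that sum. SFN, KRT6A, CDH1 and TP63 were called higher, with log2 changes between 0.16 and 0.41, and KRT5 was called lower, at 965 ± 14.8 FPKM with IFN-beta and 1374 ± 81.0 FPKM in controls (SD, n = 3 each, log2 change -0.51, limma adjusted p = 6.04e-05). The 8 T cell markers summed to between 0.686 and 0.843 FPKM with IFN-beta and to between 0.262 and 0.499 FPKM in controls, with CD3D, CD3G and CD2 at 0 reads in all 6 libraries. Of that list LCK held most of the level, and its change did not pass the test (limma adjusted p = 0.0621). The myeloid list summed to between 4.73 and 5.09 FPKM with IFN-beta, against 3.39 to 4.71 FPKM in controls, mostly from CD14, and LYZ had 0 reads in every library. The endothelial list summed to between 2.12 and 2.22 FPKM with IFN-beta, against 0.696 to 0.964 FPKM in controls, mostly from CDH5, while TEK and CLDN5 had 0 reads throughout. The fibroblast list summed to between 2.36 and 3.13 FPKM with IFN-beta and between 1.54 and 2.39 FPKM in controls, mostly from COL1A1, with DCN at 0 reads. The melanocyte list, mostly PMEL, summed to between 1.44 and 1.87 FPKM with IFN-beta and between 1.41 and 1.43 FPKM in controls, with MLANA, TYR and TYRP1 at 0 reads. In the lists of other cell types, 2 myeloid markers were tested and 1 each of the T cell, endothelial, fibroblast and melanocyte markers. Of these ITGAM, CDH5 and COL1A1 were called higher with IFN-beta. Beside these calls and those of the keratinocyte markers, 22.5% of all tested genes were called higher and 19.9% lower. The part of these markers in the results on chemokines was not tested.

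The 3 CXCR3 ligands are neighbours on the minus strand of chromosome 4. In the table's coordinates, which are those of human build GRCh38 and lie close to those of GENCODE release 29 for these genes, CXCL9 lies from 76001275 to 76007509, CXCL10 from 76021118 to 76023497 and CXCL11 from 76033682 to 76041415. Gaps of 13.6 kb and 10.2 kb separate them. The 250 bases before the RefSeq start of each are shown, and any link between these bases and the levels of the 3 genes was not tested. Capitals mark matches to the core of the interferon-stimulated response element (GAAA, any 2 bases, GAAA), to the gamma-activated site, TTCNNNGAA, and to the kappa B consensus of NF-kappa B, each searched on both strands. The sequences are RefSeq's, of build GRCh38.p14, on the minus strand and written 5′ to 3′, from chr4:76007510-76007759 for CXCL9, chr4:76023498-76023747 for CXCL10 and chr4:76036071-76036320 for CXCL11.
CXCL9: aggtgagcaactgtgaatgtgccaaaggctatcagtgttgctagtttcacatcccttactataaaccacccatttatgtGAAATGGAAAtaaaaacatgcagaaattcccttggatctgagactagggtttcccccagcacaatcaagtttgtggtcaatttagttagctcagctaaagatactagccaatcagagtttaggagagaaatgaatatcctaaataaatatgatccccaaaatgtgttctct
CXCL10: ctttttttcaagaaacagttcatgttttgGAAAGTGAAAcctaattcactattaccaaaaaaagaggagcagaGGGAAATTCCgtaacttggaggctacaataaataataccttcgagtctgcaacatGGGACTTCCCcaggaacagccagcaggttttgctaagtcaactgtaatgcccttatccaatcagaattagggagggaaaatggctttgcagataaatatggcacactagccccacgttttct
CXCL11: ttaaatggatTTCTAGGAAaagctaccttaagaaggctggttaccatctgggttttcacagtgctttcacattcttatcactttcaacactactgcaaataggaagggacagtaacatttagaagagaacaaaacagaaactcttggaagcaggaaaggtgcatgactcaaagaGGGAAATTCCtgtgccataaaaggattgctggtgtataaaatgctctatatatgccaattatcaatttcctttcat

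In these windows CXCL10 held 1 response element core and 2 kappa B matches, CXCL9 held 1 response element core, and CXCL11 held 1 gamma-activated site and 1 kappa B match. The core of CXCL10 stood 221 to 212 bases before the start and read GAAAGTGAAA, and that of CXCL9 stood 171 to 162 bases before it and read GAAATGGAAA. The same 10 letters, GGGAAATTCC, made up a kappa B match in CXCL10, 177 to 168 bases before the start, and that in CXCL11, 76 to 67 bases before it. Among the 35116 promoter windows of the same length in the RefSeq table, 3.02% held the response element core, 6.57% the gamma-activated site and 9.96% a kappa B match. The RefSeq table held promoters for 4 of the 7 genes, the fourth being CXCL14, whose window held none of the 3 motifs. CXCL16, CX3CL1 and CCL5 were not matched there. The RefSeq start of CXCL11 lies inside the longer span that the deposited table gives that gene. A match describes the letters alone and is not a binding site measured in these cells.

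CXCL10 and CXCL11 rose with IFN-beta to levels far above those of the untreated cells. CXCL10, which draws activated T cells through CXCR3, stood at 185, 220.3 and 221 FPKM in the IFN-beta libraries, against 0.834, 0.936 and 0.988 FPKM in the control libraries. The lowest IFN-beta library was 187-fold above the highest control library, so the groups lay far apart. Means were 209 ± 20.9 FPKM with IFN-beta and 0.920 ± 0.0783 FPKM in controls (SD, n = 3 each), a ratio of 227, and the log2 change was 7.20 ± 0.080 (SE, limma adjusted p = 3.61e-11). The change ranked 6 among the 15163 tested genes. Since the cells were sequenced in bulk, more cells that make a transcript and more transcript per cell cannot be told apart for this or any later result.

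CXCL11, the CXCR3 ligand of highest affinity, was likewise far higher with IFN-beta, at a lower level than CXCL10. It stood at 65.7, 79.0 and 79.9 FPKM with IFN-beta, against 0.421, 0.534 and 0.862 FPKM in controls. Its lowest IFN-beta library was 76.2-fold above its highest control library. Means were 74.9 ± 7.99 FPKM with IFN-beta and 0.606 ± 0.229 FPKM in controls (SD, n = 3 each), a ratio of 124, with a log2 change of 6.10 ± 0.140 (SE, limma adjusted p = 3.52e-09) that ranked 8 among all tested genes. Behind the control values of CXCL10 were 29, 33 and 30 reads, and behind those of CXCL11 14, 18 and 25 reads. The pseudocount shrinks changes of genes as low as these in controls. With limma voom on the recovered reads the log2 changes were 7.80 for CXCL10 and 6.99 for CXCL11.

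CXCL9, the third CXCR3 ligand and best known as a product of interferon gamma, had 19, 5 and 8 reads in the IFN-beta libraries, against 0 reads in each of the 3 control libraries. These reads correspond to 0.228, 0.0682 and 0.0947 FPKM. Every IFN-beta library thus had CXCL9 reads, at a level near the limit of what this depth can show. The 32 reads of the IFN-beta group have an exact 95% Poisson interval of 21.9 to 45.2 reads, which covers counting error only, since reads are not independent molecules. IFN-beta replicate 1 gave 19 of the 32, and without it the difference on the log2(FPKM + 0.5) scale was 0.22, against 0.33 with it. Set against a floor of 3 reads over the whole control group, CXCL9 was 10.4-fold higher with IFN-beta relative to the reads of the libraries. Without IFN-beta replicate 1 it was 6.47-fold higher. That floor is a convention, and the exact 95% Poisson limit for 0 reads is 3.69 reads, so neither fold is a lower bound. CXCL9 lay below the level filter and so had no test there. In the fit without that filter it did not pass (limma adjusted p = 0.0612). A limma voom fit to recovered reads of all genes, chosen after seeing the data, gave an adjusted p of 5.58e-06. CXCL9 entered both fits through the IFN-beta libraries alone, so neither p-value is taken as support for a rise.

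**Figure D1:**
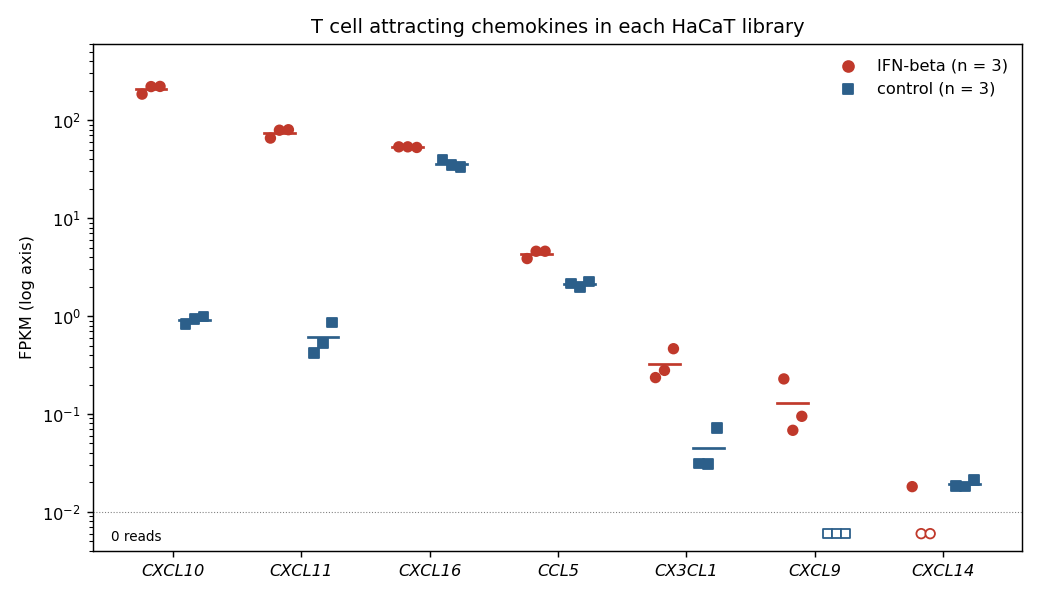
FPKM of each T cell attracting chemokine in the 3 IFN-beta libraries (red circles, left) and the 3 control libraries (blue squares, right), on a log axis, with horizontal lines at group means where no library was at 0 and open symbols for libraries with 0 reads. CXCL10 and CXCL11 are separated by 2 orders of magnitude or nearly so, while the groups of CXCL16 and CCL5 lie close together without overlapping.

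The 3 neighbours thus ranked CXCL10, CXCL11 and CXCL9 in each IFN-beta library, with no overlap between them in level per length. In each IFN-beta library CXCL10 stood at 2.81, 2.79 and 2.77 times the level of CXCL11, against 1.98, 1.75 and 1.15 times in the control libraries. These ratios do not depend on how libraries are scaled. The ratio was nearly the same in the IFN-beta libraries and varied widely in controls, where it rested on at most 33 reads of either gene. The difference in mean log2 ratio was 0.82, and the two-sided exact permutation test gave p = 0.1, the smallest that 3 against 3 libraries allow (1 pair tested, since the pairs with CXCL9 have controls at 0). Against CXCL9, CXCL10 was between 809- and 3232-fold higher in single IFN-beta libraries.

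CXCL16, the membrane-anchored ligand of CXCR6 that also binds oxidised lipoprotein, was the one gene of the 7 with a substantial level in untreated cells. It stood at 53.4, 53.4 and 52.7 FPKM with IFN-beta, against 39.8, 34.7 and 33.3 FPKM in controls. The groups did not overlap, but the lowest IFN-beta library was only 1.33-fold above the highest control. Means were 53.2 ± 0.439 FPKM with IFN-beta and 35.9 ± 3.39 FPKM in controls (SD, n = 3 each), a log2 change of 0.56 ± 0.063 (SE, limma adjusted p = 1.47e-04). Of its exonic bases in GENCODE release 29, 3.04% lie opposite those of MED11, whose reads would be mixed with its own if counting ignored strand. MED11, a subunit of the Mediator complex, went the other way, at 18.7 ± 1.78 FPKM with IFN-beta and 26.1 ± 1.89 FPKM in controls (SD, n = 3 each, log2 change -0.48, limma adjusted p = 0.0012). ZMYND15, whose deposited span also overlaps that of CXCL16, was called higher (log2 change 0.55, limma adjusted p = 0.0235). It shares no exonic base with CXCL16 in GENCODE release 29. The part of either gene in the reads of CXCL16 was not tested.

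CCL5, which attracts memory T cells and also monocytes, was low in both groups and higher with IFN-beta. Values were 3.87, 4.59 and 4.59 FPKM with IFN-beta, against 2.15, 1.97 and 2.26 FPKM in controls, from 132, 138 and 159 reads with IFN-beta and 72, 67 and 66 reads in controls. The groups were apart, by 1.71-fold between their nearest libraries. The log2 change was 0.88 ± 0.102 (SE, limma adjusted p = 1.82e-04), with means of 4.35 ± 0.418 FPKM with IFN-beta and 2.13 ± 0.143 FPKM in controls (SD, n = 3 each).

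CX3CL1, or fractalkine, the ligand of CX3CR1 on cytotoxic T cells and monocytes, stayed under 0.5 FPKM in every library. It had 23, 24 and 46 reads with IFN-beta, against 3, 3 and 6 reads in controls. That is 0.235, 0.279 and 0.464 FPKM with IFN-beta, against 0.0313, 0.0309 and 0.0717 FPKM in controls. All IFN-beta libraries were above all controls, the nearest by 3.28-fold. Relative to the reads of the libraries the group was 7.58-fold higher with IFN-beta, with an exact 95% interval of 4.14 to 15.2 for counting error only. It was not tested under the level filter. Without the filter it passed (limma adjusted p = 0.0142), as it did in a limma voom fit to recovered reads of all genes (adjusted p = 1.56e-04).

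CXCL14 was not detectable above the limit of this depth. It had 1, 0 and 0 reads with IFN-beta, against 1, 1 and 1 in controls, which are 3 reads or fewer per group, so no fold is given. In the fit without the level filter it did not pass (limma adjusted p = 0.563).

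All 4 tested genes of the 7 were called higher, where 22.5% of all tested genes were, and each of the 4 had a control mean above the level filter by itself. Their median log2 change was 3.49, against 0.01 over all tested genes. In each of these 4 every IFN-beta library was above every control library, an order that 28.6% of all tested genes showed, while 54.0% had groups apart in either direction. The same order held for CXCL9 and CX3CL1, which were not tested. Within the group the changes differed widely, since CXCL10 and CXCL11 rose over 100-fold in FPKM and CXCL16 and CCL5 by 1.48- and 2.04-fold.

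**Figure D2:**
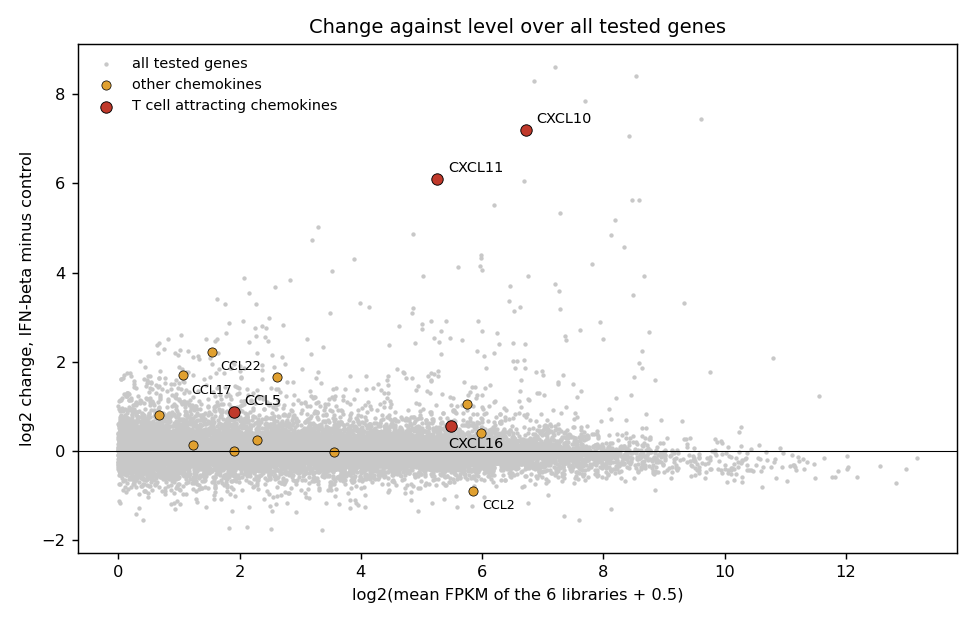
Log2 change (IFN-beta minus control) against mean level for the 15163 tested genes (grey), the 11 tested other chemokines (orange) and the 4 tested T cell attracting chemokines (red). CXCL10 and CXCL11 sit among the few genes with changes above 6, while CCL5 at 0.88 and CXCL16 at 0.56 lie in or near the upper part of the cloud.

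IFN-beta replicate 1 was the lowest of its group for CXCL10, CXCL11, CCL5 and CX3CL1. Its level was 0.836 times the mean of the other two for CXCL10, 0.826 times for CXCL11, 0.842 times for CCL5 and 0.634 times for CX3CL1. CXCL16 was at 1.007 times in that library and CXCL9, on few reads, at 2.80 times. Among the 122 genes called at least 4-fold higher, this library was the lowest of the 3 in 97, at a median of 0.922 times the other two, against 0.9898 times over all tested genes. How often this library was the lowest over all tested genes was not counted. The call of each of the 4 tested chemokines held without it.

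The T cell attracting chemokines held most of the chemokine transcripts with IFN-beta and a minor share in controls. Summed over the 7 genes, levels were 308, 358 and 359 FPKM with IFN-beta, against 43.2, 38.2 and 37.5 FPKM in controls. The 37 other chemokine genes on the list summed to 228, 218 and 222 FPKM with IFN-beta, against 189, 189.7 and 186 FPKM in controls. The 7 genes thus made up between 57.4% and 62.1% of the chemokine FPKM with IFN-beta and between 16.7% and 18.6% in controls. Their make-up differed as well. CXCL16 held between 14.7% and 17.4% of their summed level with IFN-beta and between 88.8% and 92.0% in controls, whereas CXCL10 held between 59.9% and 61.6% with IFN-beta and between 1.93% and 2.64% in controls. CXCL10 was the most abundant chemokine in all 3 IFN-beta libraries, a place that the monocyte attractant CCL2 held in all 3 control libraries.

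**Figure D3:**
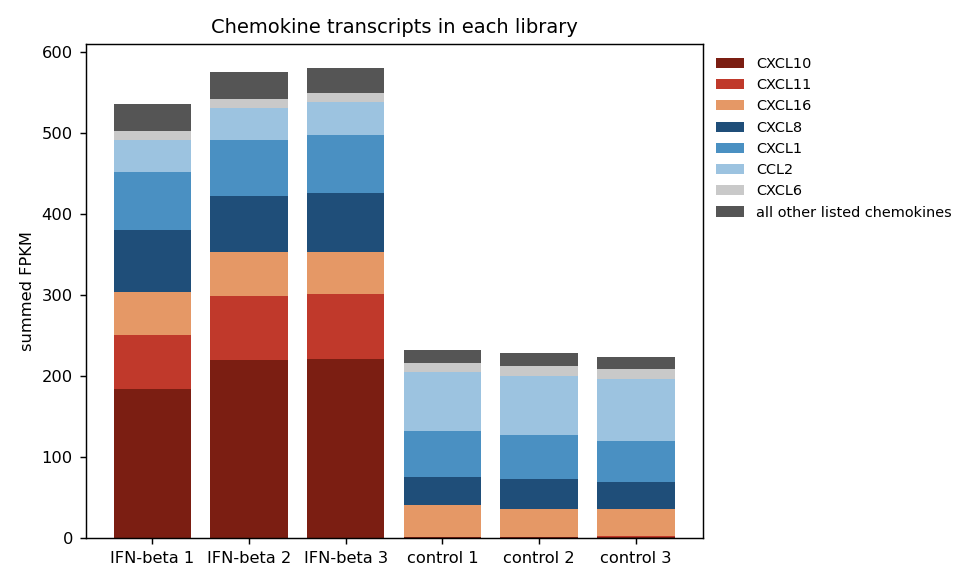
Summed FPKM of 44 chemokine genes in each library, IFN-beta on the left and control on the right, with the most abundant genes in colours of their own. The 3 lowest parts (CXCL10 in dark red, CXCL11 in red, CXCL16 in orange) fill most of each IFN-beta bar, while in control bars CXCL16 makes up nearly all of their height.

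Among the 37 other chemokines 11 were tested, of which 6 rose and CCL2 fell, where 22.5% of all tested genes were called higher and 19.9% lower. The 6 include CCL17, which passed the level filter through the IFN-beta libraries alone. The median log2 change was 0.40 over the 11 tested, against 0.01 over all tested genes. The largest rises were in the CCR4 ligands CCL22 and CCL17, which attract skin-homing and regulatory T cells. CCL22 stood at 4.05, 4.45 and 4.36 FPKM with IFN-beta, against 0.487, 0.514 and 0.571 FPKM in controls (log2 change 2.22 ± 0.109, limma adjusted p = 8.51e-07). CCL17 stood at 2.96, 2.32 and 2.75 FPKM with IFN-beta, against 0.638, 0.572 and 0.266 FPKM in controls (log2 change 1.70 ± 0.176, limma adjusted p = 9.82e-05). CCL20, the CCR6 ligand that draws IL-17-producing T cells, had a log2 change of 1.67 and the neutrophil attractant CXCL8 one of 1.05. Both were above every control in all IFN-beta libraries, as were 28.6% of all tested genes. CXCL2 rose by 0.81 and CXCL1 by 0.40 on the log2 scale, and their levels are uncertain because they and CXCL3 have similar sequences. CCL2 had means of 39.9 ± 0.646 FPKM with IFN-beta and 74.7 ± 2.36 FPKM in controls (SD, n = 3 each, log2 change -0.90, limma adjusted p = 4.10e-07). CXCL6, CCL28 and CXCL3 did not pass, with log2 changes of -0.02 ± 0.061 for CXCL6, 0.24 ± 0.102 for CCL28 and -0.0030 ± 0.111 for CXCL3 (SE). Of the 26 that were not tested, 15 had 0 reads in every library, among them CXCL12, CXCL13, CCL21 and the skin T cell attractant CCL27.

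**Figure D4:**
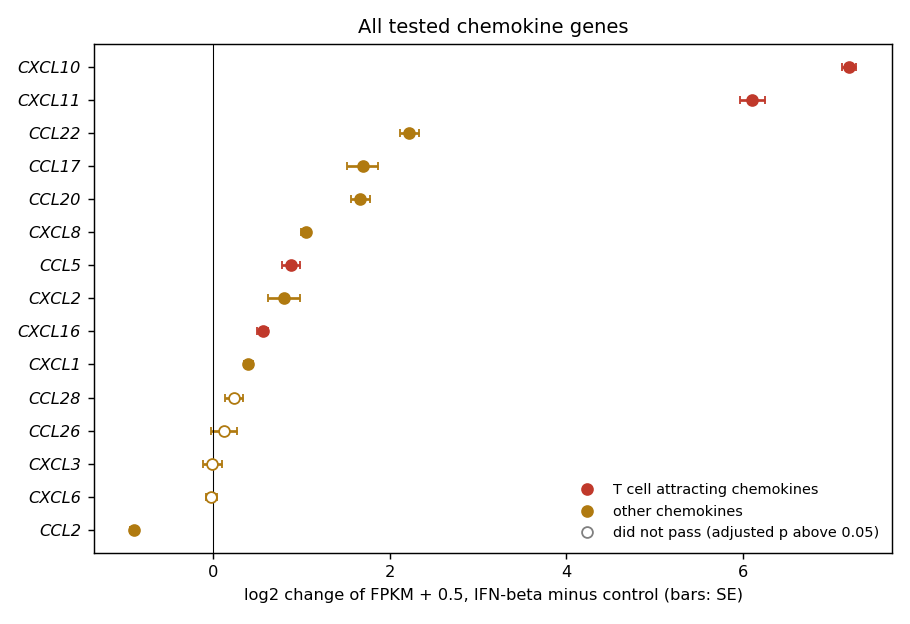
Log2 change of the 15 tested chemokine genes (IFN-beta minus control, bars SE), in red for the T cell attracting chemokines and brown for the others, with open symbols for genes that did not pass. CXCL10 at 7.20 and CXCL11 at 6.10 stand apart from CCL22 at 2.22, and CCL2 at -0.90 is the one that fell.

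CX3CL1 lies between those CCR4 ligands on chromosome 16, from 57372477 to 57385044, with CCL22 6.29 kb below it and CCL17 19.7 kb above it. The 3 genes had the same order of groups, with each IFN-beta library above each control, an order that 28.6% of all tested genes showed. Among the 10 genes within 100 kb of CX3CL1, 7 were tested, of which CCL22, CCL17 and PLLP (log2 change 0.89, limma adjusted p = 1.12e-04) were called higher and CIAPIN1 and COQ9 lower. Of all tested genes, 22.5% were called higher and 19.9% lower. Within 100 kb of CXCL16, 8 genes were tested, with 3 called higher and 4 lower. Near CCL5 3 were tested, with 0 called higher and 1 lower, and near CXCL14 0 were tested. Around the CXCR3 ligands, 7 genes other than these 3 lay within 100 kb of one of them and 3 of the 7 were tested. SDAD1, at 56.8 ± 2.11 FPKM with IFN-beta and 45.6 ± 3.44 FPKM in controls (SD, n = 3 each), rose by 0.32 on the log2 scale (limma adjusted p = 0.0024). NAAA and NUP54 did not pass, at log2 changes of -0.07 and 0.12. ART3, whose span covers CXCL10 and CXCL11, had 6 reads in all 6 libraries together. No exonic base of CXCL9, CXCL10, CXCL11, CX3CL1 or CCL5 is shared with another gene in GENCODE release 29.

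**Figure D5:**
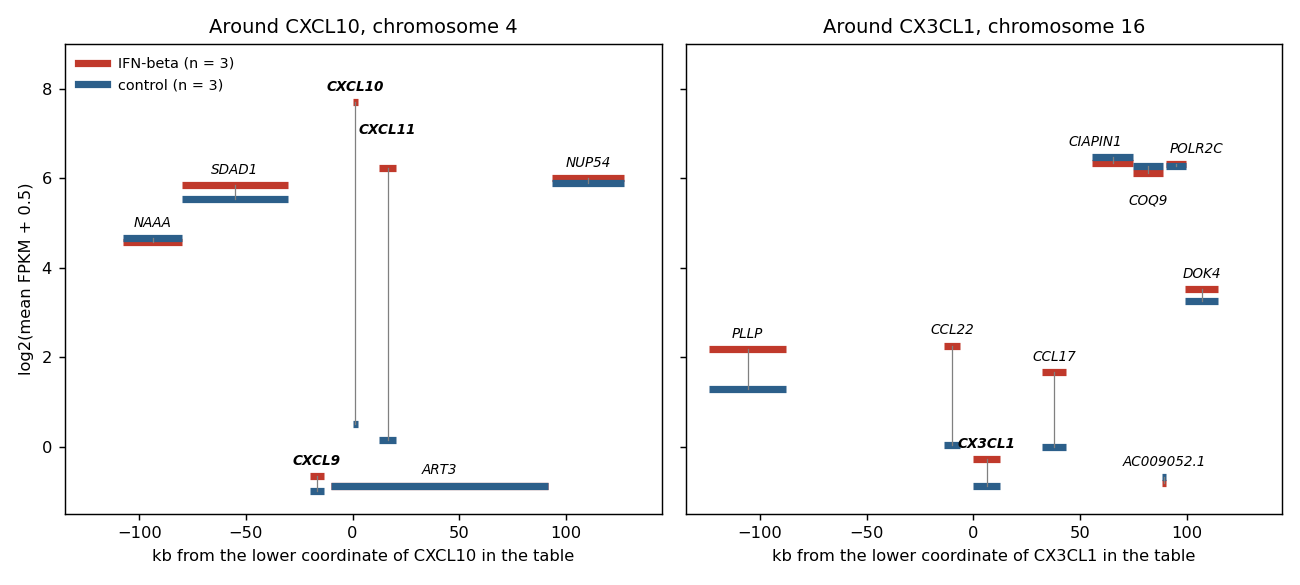
Mean level, as log2(mean FPKM + 0.5), of the genes within 100 kb of CXCL10 and of CX3CL1, placed by their distance from the lower coordinate of that gene, with IFN-beta in red and control in blue and genes at 0 in all libraries left out. The wide gaps between red and blue are at CXCL10 and CXCL11 on chromosome 4 and at CCL22 and CCL17 on chromosome 16, CXCL9 and CX3CL1 lie at the bottom with a narrow gap, and SDAD1, NAAA and NUP54 show the 2 colours close together.

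Of the receptors listed for the 7 chemokines, ACKR3 alone passed the level filter. CXCR3 had 0 reads in every library, and CXCR4, CXCR6, CX3CR1, CCR1, ACKR1 and ACKR2 had at most 3 reads in any. CCR3 stayed under the level filter, with 17, 17 and 31 reads with IFN-beta and 6, 14 and 8 reads in controls. The atypical receptor ACKR3, which takes up CXCL11 without signalling through G proteins, stood at 6.22, 6.15 and 6.18 FPKM with IFN-beta, against 7.39, 7.65 and 6.41 FPKM in controls. The IFN-beta libraries were the lower ones, an order that 25.4% of all tested genes showed. The log2 change of ACKR3, -0.19 ± 0.079, did not pass (SE, limma adjusted p = 0.0816).

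Of 7 proteases listed as processing these chemokines, 6 were tested, 2 rose and 1 fell. Over all tested genes 22.5% were called higher and 19.9% lower. ADAM10, at 216 ± 2.14 FPKM with IFN-beta and 209 ± 3.19 FPKM in controls, and ADAM17, at 22.5 ± 0.210 FPKM with IFN-beta and 22.2 ± 0.925 FPKM in controls, did not pass (SD, n = 3 each, limma adjusted p = 0.323 and 0.771). DPP4, which clips the first residues of CXCL9, CXCL10 and CXCL11, stood at 3.08, 3.26 and 3.30 FPKM with IFN-beta, against 2.00, 2.10 and 2.25 FPKM in controls (log2 change 0.51 ± 0.094, limma adjusted p = 0.00265). CTSS, the protease cathepsin S that in rodents releases CX3CL1 from cells, was at 46.6, 50.4 and 52.0 FPKM with IFN-beta, against 7.70, 9.15 and 9.62 FPKM in controls (log2 change 2.43). MMP2, which cuts several chemokines, fell by 0.32 on the log2 scale (limma adjusted p = 0.0012).

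Of the 16 genes listed for the signals that lead to the CXCR3 ligand genes, 15 were tested and 12 rose, where 22.5% of all tested genes were called higher, with a median log2 change of 0.32 over the tested ones. IRF7 had a log2 change of 4.40 and IRF1, which binds response elements, one of 0.45 ± 0.047 (limma adjusted p = 9.63e-05). IRF8 had too few reads for a test. The NF-kappa B subunit gene NFKB1 did not pass, at 45.4 ± 2.00 FPKM with IFN-beta and 45.5 ± 2.02 FPKM in controls (SD, n = 3 each, limma adjusted p = 0.968). Of the 10 interferon and TNF genes only 2 were tested, where 22.5% of all tested genes were called higher. TNF rose by 0.72 on the log2 scale (limma adjusted p = 0.0039), and IFNE did not pass (limma adjusted p = 0.981). Interferon gamma, the inducer for which CXCL9 is best known, (IFNG) had 0 reads in all 6 libraries. IFNB1 itself had 2, 0 and 1 reads in the IFN-beta libraries and 0 in every control.

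By Pearson correlation of log2(FPKM + 0.5) over the 6 libraries, the genes with the pattern most like CXCL10 were IFIH1, USP18 and PARP14, with r of 0.99995, 0.99992 and 0.9999. For CXCL11 they were IFIT1, HERC5 and BST2, with r between 0.99982 and 0.99988. CXCL16 was most like SIX4, PRRC2B and RHPN2, with r between 0.9985 and 0.9997, and CCL5 most like SPRY4, PHC2 and IL18R1, with r between 0.9977 and 0.9982. With 2 groups of 3 libraries, r mostly reflects the step between the groups, and 480 genes had an r above 0.99 with CXCL10. IFIH1, an RNA sensor, stood at 178 ± 5.41 FPKM with IFN-beta and 18.5 ± 0.453 FPKM in controls (SD, n = 3 each), so that a like pattern went with a log2 change of 3.23, far from the 7.20 of CXCL10.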

How the data were processed

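RNA of 6 HaCaT libraries, 3 with IFN-beta and 3 controls, was sequenced. The titles gave each library its group and number. The authors deposited 1 table of FPKM values per gene. No source used here names the aligner, the counter, the use of strand or the annotation. Per the labels' protocols CLC Genomics Workbench 11.0.1 was used, for a step not stated. Per the submitters' processing notes the builds were GRCm38 and mm10, both mouse, whereas all 60671 identifiers are human. Of the 58453 identifiers also in GENCODE release 29 (GRCh38), 76.9% had the same coordinates there.

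Read totals and reads were recovered from the FPKM steps, and their precision is set by the 25832158 to 30594527 reads per library. The main test was limma 3.58.1 in R 4.3.3 (lmFit, eBayes with trend, two-sided, Benjamini-Hochberg adjustment). Python 3.11.15, pandas 2.3.3, numpy 2.4.6 and scipy 1.17.1 served for tables and exact tests. A floor of 3 reads stands for a count of 0. The members and the gene lists were chosen with earlier results of these data known, the alternatives and tests likewise. Named are all 7 genes, genes within 100 kb of them, the 3 most alike by correlation and, from each list, up to 5 called genes by size of change and up to 3 others by level. The marker genes that hold most of a list's level were picked with their values in view. Some genes of the receptor and signalling lists are not reported here by name.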

Additional observations from a re-analysis of the deposited data

How the results depend on the processing

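The log2 changes of CXCL10, CXCL11, CXCL16 and CCL5 kept their direction and their call under every alternative run. These were pseudocounts of 0.1 and 1, no level filter, a minimum of 2 FPKM, quantile normalization, rescaling to equal sums, size factors by median of ratios, eBayes with robust fitting or without trend, limma voom on recovered reads, and each library left out. Outside the fits with a library left out, changes ran from 6.77 to 7.80 for CXCL10, 5.57 to 6.99 for CXCL11, 0.52 to 0.61 for CXCL16 and 0.77 to 1.03 for CCL5. The highest adjusted p over all alternatives was 0.0026, for CXCL16. The voom fit without the level filter was chosen after seeing the data. Called receptors, 1 lower (ACKR3), appeared after quantile normalization and with median-of-ratios size factors, and between 0 and 1 when single libraries were left out (1 without control replicate 3). Called interferon and TNF genes numbered 2 without the level filter (IFNK and TNF among 30507 genes) and 0 at a minimum of 2 FPKM, where TNF was not tested. IFNK had 11, 7 and 3 reads with IFN-beta and 0 in every control. It thus entered the fit without the filter through the IFN-beta libraries alone, and its call is not taken as a result. Called signalling genes numbered between 8 and 12. The log2 ratio of CXCL10 to CXCL11 differed by 0.58 without control replicate 3 and by 1.09 with the pseudocount of 0.5 added. With the replicate number as a block, 5817 genes were called, against 6431 without it, and the 4 chemokines stayed called. Deviations of libraries with the same number correlated at -0.052, -0.098 and -0.058, so no signal shared by number was seen. With 3 libraries per group and no label on pairing, these values cannot settle whether the libraries were paired. What depth limits here is CXCL9, CX3CL1 and CXCL14, at no more than 46 reads in any library.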
